A study of Mus musculus with 22 samples.

Results

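The response of mouse embryonic stem cells (ESCs) to 4OHT against DMSO was followed as 1 common effect over 10 of the 22 libraries of the series. These libraries carry a Dux label or form the unnumbered pair beside them. Every one of the 10 is a Ythdc1 conditional knockout (cKO) library, so the conditional allele is shared by both treatments. None is a 4OHT library without that allele, so an effect of 4OHT itself cannot be told apart from one of Ythdc1 loss. The 5 libraries under 4OHT comprise 2 Dux-KO, 2 Dux-Het and 1 with no Dux label, and the 5 libraries under DMSO comprise the same 2, 2 and 1. The members were chosen by title and column name. In these 10 libraries the genotype and treatment fields lie 1 sample off the titles, and groups were taken from the titles, which are also the column names of the table. The ESCs are male, stem from the inner cell mass, and grew in serum and LIF without feeder cells. 4OHT is a ligand in wide use to switch on inducible Cre recombinases, and DMSO is its solvent. The recombinase, the part of Ythdc1 that is removed, the dose and time of 4OHT, the Dux alleles and the number of clones behind each label are not given in the sources. The labels do not say whether replicates are separate cultures. The p-values therefore cover the spread between these 10 libraries, which may be technical.

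Ythdc1 is the YTH-family protein that reads N6-methyladenosine (m6A) in the nucleus, where it binds methylated transcripts and takes part in their splicing, export and decay. In ESCs it is also known for binding methylated RNA of retrotransposons and for a part in keeping them silent. Dux is the transcription factor that switches on genes of the two-cell embryo, among them the Zscan4 cluster and the endogenous retrovirus MERVL, in the rare ESCs that enter a two-cell-like state. Dux stands in the count table as Duxf3.

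Levels are in CPM, the deposited counts scaled by each library's total and by the trimmed mean of M values (TMM). Where 5 values of a treatment are listed, they stand in the order Dux-KO 1, Dux-KO 2, Dux-Het 1, Dux-Het 2 and no Dux label. Log2 fold changes and adjusted p-values are those of the common effect in edgeR's quasi-likelihood test with the Dux label as a covariate, and a gene is said to have risen or fallen where its adjusted p was under 0.05. Within-label ratios are log2 (4OHT CPM + 0.5) minus log2 (DMSO CPM + 0.5), so they understate changes of low genes. Total counts were 43.02 to 54.14 M under 4OHT and 31.64 to 47.36 M under DMSO. The Dux-KO replicate 1 library under DMSO stood apart from the rest. It had the smallest total (31.64 M), the lowest share of counts in repeat families (16.39%, against 18.48 to 20.95% in the other DMSO libraries) and the lowest share in mitochondrially encoded genes (0.324%, against 0.695 to 1.11%). The chi-square per degree of freedom between it and its replicate was 99.07, against 18.99 to 46.41 in the other replicate pairs. Without it 4971 entries rose and 4869 fell.

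Ythdc1 itself (chr5:86804221-86836659 on mm10, plus strand) had 54.03, 56.7, 52.6, 65.8 and 46.8 CPM under 4OHT, against 48.7, 68.8, 58.01, 85.98 and 58.6 CPM under DMSO. The treatments overlapped and the fall did not pass (log2 change -0.21 with SE 0.124, edgeR adjusted p = 0.203). Without the Dux-KO replicate 1 library under DMSO it passed (log2 change -0.33 with SE 0.114, edgeR adjusted p = 0.0412). Counts over the whole gene do not show whether the removed part is absent. The libraries are therefore called by their treatment and not as knockouts. Mettl3, the writer's catalytic subunit, averaged 34.2 ± 1.46 CPM under 4OHT and 32.2 ± 2.58 CPM under DMSO, a difference that did not pass (adjusted p = 0.431 by edgeR). Duxf3 had 0.0199, 0.0903, 1.55, 0.925 and 1.03 CPM under 4OHT, against 0.0677, 0.0819, 0.141, 0.0691 and 0.337 CPM under DMSO. The Dux-KO libraries held 1 and 5 counts under 4OHT and 2 and 4 counts under DMSO, and the Dux-Het and unlabelled 4OHT libraries stood above all others, each with 46 to 68 counts. The common rise passed (log2 change 2.11 with SE 0.5798, edgeR adjusted p = 0.0120), with ratios of -0.05 in Dux-KO, 1.52 in Dux-Het and 0.87 in the pair with no Dux label, and did not pass without the Dux-Het libraries (0.74, adjusted p = 0.469 by edgeR). The cells carried ESC markers under both treatments. The 10 defining markers Pou5f1, Sox2, Nanog, Zfp42, Esrrb, Klf4, Utf1, Dppa5a, Tdgf1 and Fgf4 averaged 52.3 to 325 CPM under 4OHT and 46.4 to 488 CPM under DMSO. Of 10 fibroblast and feeder genes tested, Thy1 fell and none rose, and Dcn, Lum and S100a4 held too few counts to be tested.

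The common effect reached a large part of the table. Of 29322 entries tested, 5913 rose (20.2%) and 4754 fell (16.2%), and 2460 rose and 813 fell by at least 2-fold. These shares, 20.2% and 16.2%, are the background for every gene list count below, and a count near them is no result about its list. Among 28275 genes 5229 rose (18.5%) and 4751 fell (16.8%), while among 1047 repeat families 684 rose (65.3%) and 3 fell (0.287%). The median log2 fold change was 0.03 over genes and 0.35 over repeat families. In 12.9% of entries every library under 4OHT lay above every library under DMSO, and in 10.6% every one lay below. Without the Dux-KO libraries, which leaves 6 libraries, 2261 entries rose and 2361 fell.

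Of 10667 entries called, 10390 had within-label ratios of the common sign in Dux-KO, in Dux-Het and in the unlabelled pair. The call was made on the same libraries, which favours 1 sign, so this count is a description. Tested within a label on 2 libraries against 2, 1612 entries rose (5.5%) and 1278 fell (4.36%) in Dux-KO, and 1464 rose (4.99%) and 1274 fell (4.34%) in Dux-Het. The test of the difference between the labels called 0 entries in either direction with edgeR, where 481 entries had an unadjusted p under 0.05, and 0 with limma-trend, where 624 did. DESeq2 called 2 entries with a lower effect in Dux-KO, MERVL-int and Gm8994, and 0 with a higher one. The fit with the replicate number as a block called 2 higher and 3 lower. For genes with no counts in either Dux-KO group this test has little to work with, so their values are given per label. Across 18751 entries with a mean of at least 1 CPM the Dux-KO and Dux-Het ratios had Pearson's r = 0.881 and Spearman's rho = 0.871, a description across genes, which are not independent replicates.

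**Figure D1:**
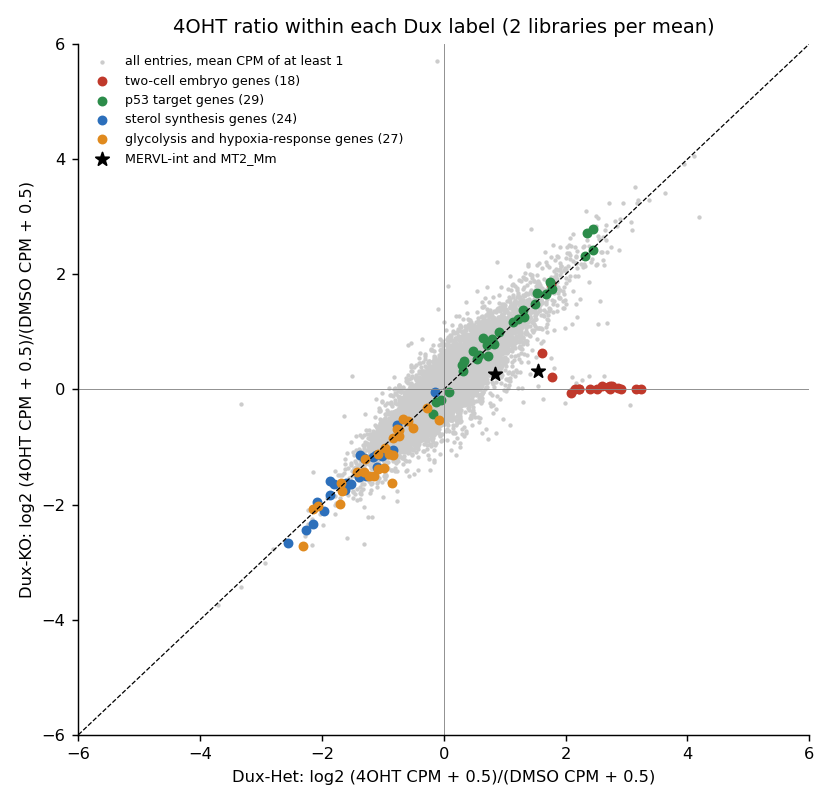
The log2 ratio of 4OHT over DMSO (with 0.5 CPM added) in Dux-KO libraries (vertical axis) against Dux-Het libraries (horizontal axis), 1 point per entry with a mean of at least 1 CPM. p53 targets, sterol genes and glycolysis genes lie along the diagonal, and most two-cell embryo genes lie near 0 on the Dux-KO axis at Dux-Het ratios above 1.5, with MERVL-int and MT2_Mm between them.

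Most targets of p53 rose. p53 is the transcription factor that answers DNA damage and other stress by halting the cell cycle or starting apoptosis. Of 30 targets 26 rose, Xpc fell, and Sesn1, Ddb2 and Tigar did not pass. The list's median log2 fold change was 0.85, against 0.05 over all entries. Mdm2, the ubiquitin ligase that degrades p53 (chr10:117688875-117710758 on mm10, minus strand), had 426, 375, 369, 288 and 226 CPM under 4OHT, against 57.99, 62.4, 55.6, 72.2 and 54.6 CPM under DMSO. Every library under 4OHT lay above every library under DMSO, a 5.46-fold rise (log2 change 2.45 with SE 0.124, edgeR adjusted p = 2.29e-08). Cdkn1a, the cyclin-dependent kinase inhibitor p21, had 119.8, 127, 116, 125 and 95.9 CPM under 4OHT, against 39.7, 33.6, 36.2, 33.8 and 38.8 CPM under DMSO. It rose 3.19-fold with no overlap (log2 change 1.68 with SE 0.0923, edgeR adjusted p = 5.24e-08). Among genes of cell cycle control, Plk2 rose 5.04-fold (100.5 CPM under 4OHT and 19.9 CPM under DMSO), Ccng1 rose 2.93-fold and Btg2 3.15-fold. Trp73, which encodes the p53 relative p73, averaged 24.2 ± 4.52 CPM under 4OHT and 3.56 ± 0.432 CPM under DMSO (6.75-fold). Of the apoptosis genes, Perp rose 5.56-fold, the death receptor gene Fas 8.98-fold, Apaf1 2.23-fold, Pmaip1 1.58-fold, Bbc3 1.5-fold and Bax 1.26-fold. Within Dux-KO 23 of the 30 passed as higher on their own, and within Dux-Het 21 did. Xpc, a DNA damage recognition gene, had a log2 fold change of -0.31 (edgeR adjusted p = 0.0165), a call that ended without either unlabelled library or without 4OHT Dux-KO replicate 2.

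**Figure D2:**
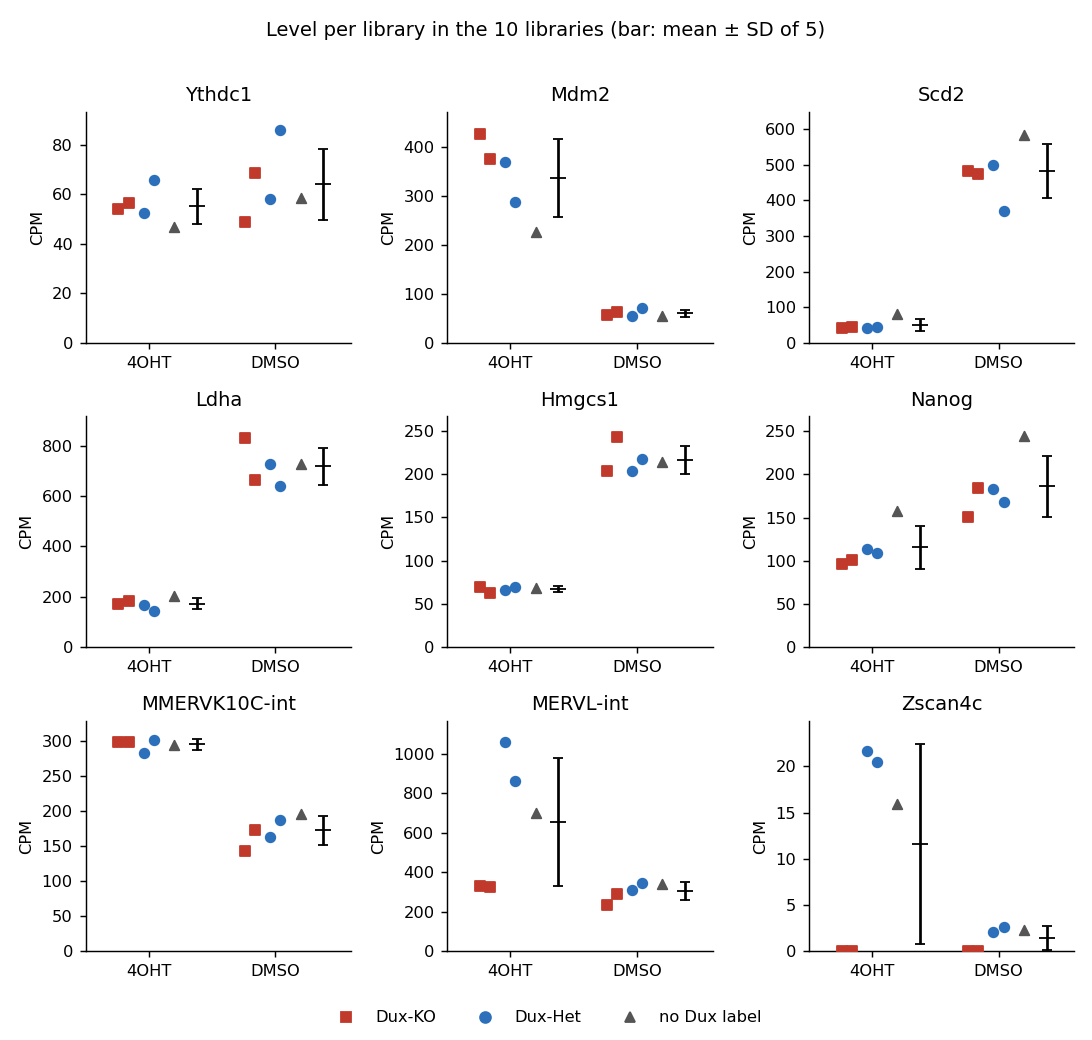
CPM per library (vertical axis, from 0) for 9 entries under 4OHT and DMSO, with squares for Dux-KO, circles for Dux-Het and triangles for no Dux label, and bars for the mean ± SD of 5 libraries. Mdm2 and MMERVK10C-int are higher and Scd2, Ldha and Hmgcs1 lower in every 4OHT library, Ythdc1 overlaps, and the rise of Zscan4c and most of that of MERVL-int are in the Dux-Het and unlabelled libraries.

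Genes of sterol synthesis fell almost throughout. Cells make cholesterol from acetyl-CoA through the mevalonate pathway, and the transcription factor SREBP2, encoded by Srebf2, drives these genes when sterols are low. Of 24 genes of this list 23 fell and none rose, at a median of -1.61, and all 23 also fell within Dux-KO and within Dux-Het on their own. Ebp, a sterol isomerase, did not pass (9.24 CPM under 4OHT and 9.51 CPM under DMSO). Hmgcs1, the synthase at the head of the pathway (chr13:119690379-119708260 on mm10, plus strand), had 69.4, 62.2, 66.3, 69.3 and 68.2 CPM under 4OHT, against 204, 243, 204, 217 and 214 CPM under DMSO. The libraries did not overlap (3.23-fold lower, log2 change -1.69 with SE 0.0785, edgeR adjusted p = 1.05e-08). Further along the pathway Fdps fell 5.01-fold, Sqle 3.598-fold, Cyp51 4.07-fold and Msmo1 4.796-fold. The sensor Insig1 fell 4.22-fold and Srebf2 itself 2.52-fold.

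The Hmgcs1 promoter is shown because Hmgcs1 was the 1 gene, of 16 sterol genes with a RefSeq promoter, whose window held the sterol response element searched for. The motif TCACNCCAC was read on both strands in windows of the 250 bases before the start, in which 1.22% of 27025 genes hold it. A match is a description and not a site. The 150 bases before the RefSeq start (GRCm38.p6, chr13:119690201-119690350, plus strand) are given 5′ to 3′ with the match in capitals, and it begins 137 bases upstream.
Hmgcs1: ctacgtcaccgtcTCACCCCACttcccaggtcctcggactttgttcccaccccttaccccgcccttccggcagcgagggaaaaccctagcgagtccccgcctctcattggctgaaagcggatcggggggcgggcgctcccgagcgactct

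Fatty acid genes fell as well, the desaturases Scd1 and Scd2 most of all. Of 20 genes of fatty acid synthesis and desaturation 16 fell, none rose and Elovl1, Elovl7, Fads3 and Gpam did not pass (median -0.85). Scd2, a stearoyl-CoA desaturase that makes monounsaturated fatty acids (chr19:44293674-44306864 on mm10, plus strand), had 43.2, 44.4, 41.5, 43.8 and 80.1 CPM under 4OHT, against 482, 474, 499.7, 371 and 583 CPM under DMSO. The highest 4OHT value, in the unlabelled library, was far below the lowest DMSO value (9.805-fold lower, log2 change -3.29 with SE 0.112, edgeR adjusted p = 1.43e-09). Its paralog Scd1 had 6.57, 7.33, 7.37, 4.16 and 13.98 CPM under 4OHT, against 94.2, 106, 101, 61.8 and 122 CPM under DMSO, again with no overlap (12.9-fold lower). Mir5114, which lies inside Scd2 on the same strand (chr19:44303171-44303231), was 9.22-fold lower, and its reads cannot be told apart from those of Scd2 here. Fasn, the fatty acid synthase, averaged 331 CPM under 4OHT and 973 CPM under DMSO (2.93-fold lower), and Acaca, which makes its substrate malonyl-CoA, fell 1.98-fold. Among genes that activate or elongate fatty acids, Acsl3 fell 4.05-fold and Elovl6 1.29-fold. Srebf1, which encodes the fatty acid regulator SREBP1, fell 1.92-fold.

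Genes of glycolysis and the hypoxia response fell together. Glycolysis turns glucose into pyruvate and lactate, and many of its genes are driven by the hypoxia-inducible factors. Of 28 genes 27 fell and none rose, with a median of -1.16. Car9 did not pass (0.935 CPM under 4OHT and 1.03 CPM under DMSO). Ldha, which turns pyruvate into lactate (chr7:46841475-46855627 on mm10, plus strand), had 173, 181, 166, 142 and 202 CPM under 4OHT, against 831, 664, 726, 642 and 729 CPM under DMSO. The lowest DMSO library held several times the count of the highest 4OHT library (4.17-fold lower, log2 change -2.06 with SE 0.0905, edgeR adjusted p = 7.12e-09). In the order of the pathway, the glucose transporter Slc2a1 fell 1.56-fold, hexokinase Hk2 2.55-fold, Pfkp 2.43-fold, Aldoa 2.595-fold, Tpi1 3.15-fold, Pgk1 2.66-fold, Eno1 2.15-fold and Pkm 1.69-fold. Of the hypoxia-response genes outside glycolysis, the mitophagy receptor gene Bnip3 averaged 17.6 ± 1.82 CPM under 4OHT and 62.6 ± 12.6 CPM under DMSO, and the oxygen-sensing hydroxylase Egln3 fell 4.02-fold. Ndufa4l2, a relative of a respiratory chain subunit, had 0.637, 0.415, 0.433, 0.347 and 1.48 CPM under 4OHT, against 7.32, 5.18, 5.61, 2.21 and 10.2 CPM under DMSO, which did not overlap (9.77-fold lower). The DMSO values of Ndufa4l2 were spread from 2.21 to 10.2 CPM.

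The core of the hypoxia response element, ACGTG, was read on both strands of the same RefSeq windows. It stood in 15 of 24 glycolysis and hypoxia genes with a promoter (62.5%) and in 18.5% of 27025 genes. Ldha is shown because 5 of its matches fall within the 150 bases before its start. The stretch (GRCm38.p6, chr7:46845654-46845803, plus strand) is given 5′ to 3′ with matches in capitals, and ACGTG and its reverse complement overlap within CACGTG.
Ldha: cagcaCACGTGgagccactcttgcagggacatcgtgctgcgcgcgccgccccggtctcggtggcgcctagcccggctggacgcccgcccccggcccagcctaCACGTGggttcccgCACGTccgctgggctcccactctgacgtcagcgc

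Replication and cell cycle genes fell by smaller amounts. Of 30 genes 26 fell, Ccnd2 rose, and Ccne2, Mki67 and E2f1 did not pass (median -0.59). Ccne2 passed as lower with the replicate block (edgeR adjusted p = 0.0326). Ccne1, the cyclin that starts DNA replication, had 42.6, 39.9, 39.9, 41.8 and 40.3 CPM under 4OHT, against 107, 94.1, 95.6, 106 and 83.8 CPM under DMSO. It showed the largest fall of the list with no overlap (2.37-fold, log2 change -1.25 with SE 0.0790, edgeR adjusted p = 1.99e-07). Of the helicase subunits Mcm2 to Mcm7 all 6 fell, with log2 fold changes of -0.78 (Mcm4) to -0.38 (Mcm7). The mitotic kinase gene Plk1 averaged 58.9 ± 4.81 CPM under 4OHT and 105 ± 7.03 CPM under DMSO, and the replication inhibitor geminin, Gmnn, fell 1.89-fold. Ccnd2, a D-type cyclin gene, rose 1.26-fold (adjusted p = 0.0303 by edgeR). That call ended when any 1 of the 4 Dux-KO libraries, 4OHT Dux-Het replicate 2 or DMSO Dux-Het replicate 1 was left out. Of 28 ribosome biogenesis genes 19 fell and 0 rose (median -0.34), and with the replicate block 20 fell and 2 rose. Among those that fell were Nolc1, a nucleolar chaperone (88 CPM under 4OHT and 152 CPM under DMSO), and Ddx21, a nucleolar helicase (258 CPM under 4OHT and 389 CPM under DMSO). Leaving out DMSO Dux-Het replicate 2 also gave 2 that rose.

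Genes that silence chromatin and retroelements fell in part. Of 36 genes 21 fell and 2 rose, with a median of -0.30. Ehmt2, the H3K9 methyltransferase G9a, had 41.6, 41.6, 43.9, 51.9 and 50.6 CPM under 4OHT, against 124, 91.4, 107, 109 and 118 CPM under DMSO. It fell most in the list, with no overlap (2.397-fold, log2 change -1.26 with SE 0.0940, edgeR adjusted p = 8.03e-07). Trim28, the corepressor that KRAB zinc finger proteins bring to retroelements, averaged 735 ± 22.9 CPM under 4OHT and 1174 ± 178 CPM under DMSO (1.59-fold lower). Uhrf1 and Dnmt1, which copy DNA methylation at replication, fell 1.82-fold and 1.36-fold, and the histone chaperone subunit Chaf1b fell 1.86-fold. The H3K9 methyltransferase Setdb1 did not pass (105 CPM under 4OHT and 109.6 CPM under DMSO, adjusted p = 0.504 by edgeR). The 2 that rose were Dnmt3l, a cofactor of DNA methylation (141 CPM under 4OHT and 98.7 CPM under DMSO), and Zfp809, which binds retroviral sequence (31 CPM under 4OHT and 22.7 CPM under DMSO).

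**Figure D3:**
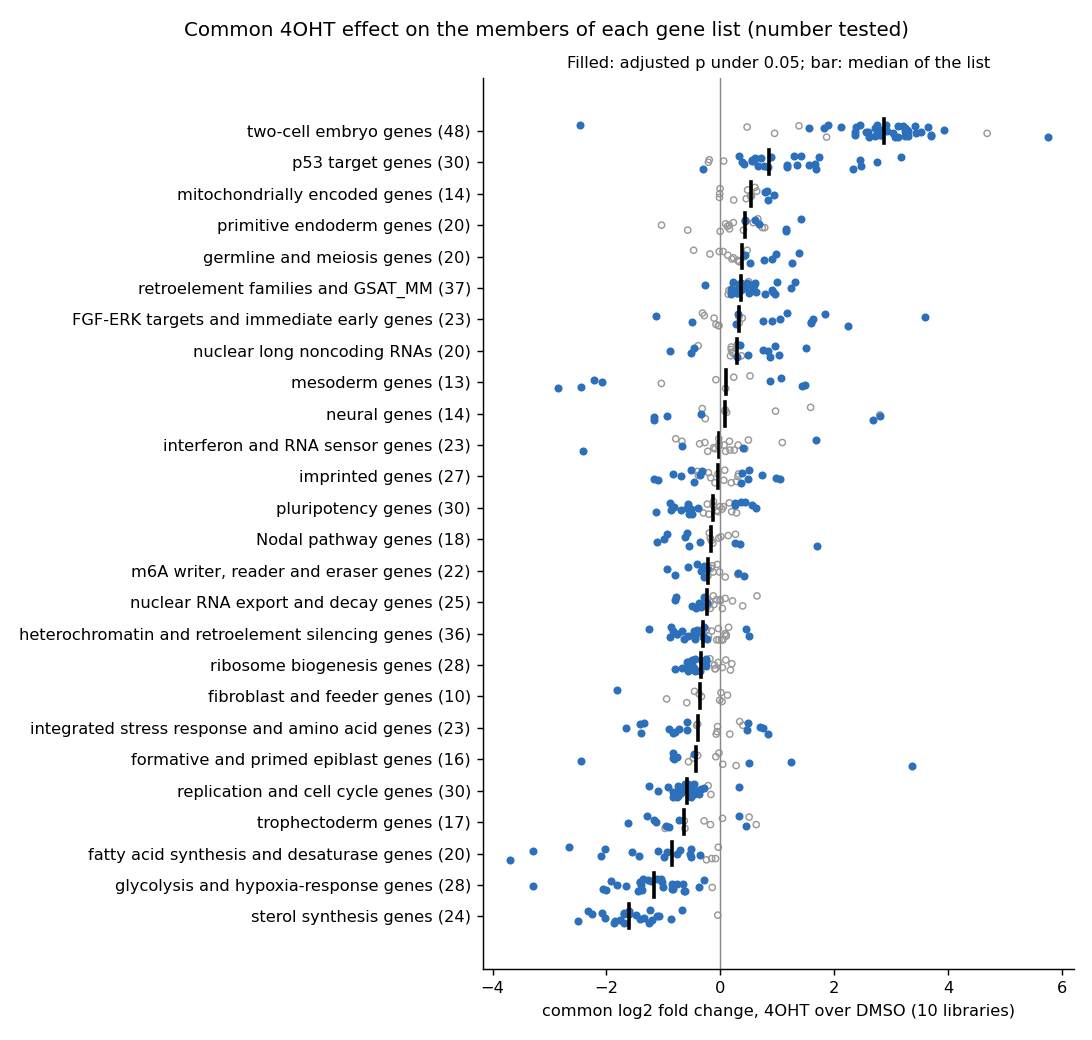
Log2 fold change of 4OHT over DMSO (horizontal axis) for every tested member of 26 lists, with filled points at an adjusted p under 0.05 and a bar at each list's median. The medians run from 2.87 for two-cell embryo genes to -1.61 for sterol genes. The two-cell median is favoured by the filter on low counts, which genes could pass through 4OHT libraries alone.

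Repeat families rose as a class. They held 24.00, 24.41, 24.36, 25.02 and 24.71% of counts under 4OHT, against 16.39, 20.78, 18.48, 20.95 and 20.01% under DMSO. The groups did not overlap, and the mean within-label difference was 5.10 percentage points (exact permutation test within Dux label, two-sided, p = 0.0278, the smallest p this design allows). Taken as 5 same-numbered pairs, the share was higher under 4OHT in 5 of 5, by 3.63 to 7.61 points, and an exact permutation test of the signs gave p = 0.0625, the smallest that 5 pairs allow. In 51.3% of families every 4OHT library lay above every DMSO library. The median was 0.41 in Dux-KO and 0.30 in Dux-Het. The Dux-KO value includes DMSO Dux-KO replicate 1, the library with the lowest repeat share. Without that library 497 families rose and the share differed by 4.37 points, so the medians are not read as a larger response in Dux-KO. Without the Dux-KO libraries 147 families rose, without the Dux-Het libraries 419, and with the unweighted mean of the 3 within-label effects 425. Within Dux-KO 61 families rose (5.83%, against 5.5% of all entries), and within Dux-Het 20 rose (1.91%, against 4.99% of all entries). Reads that map to several copies stand behind these counts, and the labels do not say how they were assigned.

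Of 37 families listed, which are retroelements and the major satellite GSAT_MM, 28 rose and B2_Mm1a fell, with a median of 0.36. Among all repeat families tested 65.3% rose. MMERVK10C-int, the internal part of an endogenous retrovirus of the ERVK class, had 298, 298, 282, 300.5 and 295 CPM under 4OHT, against 142, 172, 163, 187 and 196 CPM under DMSO. All 4OHT libraries stood above all DMSO libraries, and the ratios were 0.92 in Dux-KO, 0.74 in Dux-Het and 0.59 in the pair with no Dux label (log2 change 0.78 with SE 0.0839, edgeR adjusted p = 1.65e-05). ETnERV-int, of the early transposon group, had 1267, 1461, 1363, 1413 and 1398 CPM under 4OHT, against 481, 664, 576, 1023 and 757 CPM under DMSO, with no overlap (1.995-fold higher). Within the same class IAPEz-int, the intracisternal A particle, rose 1.53-fold (768 CPM under 4OHT and 503 CPM under DMSO) and MMERVK9C_I-int 1.87-fold. RLTR13G averaged 384 ± 42.1 CPM under 4OHT and 167 ± 75.3 CPM under DMSO, and RLTR19D, the family with the largest rise at a mean of at least 1 CPM, had a log2 fold change of 1.43. The young LINE families L1Md_T, L1Md_A and L1Md_Gf did not pass (0.23, 0.26 and 0.14), while the older L1Md_F2 and L1Md_F3 rose (0.36 and 0.35). With the replicate block L1Md_T and L1Md_A also passed (adjusted p = 0.00460 and 0.00422 by edgeR). Among SINEs B1_Mm rose by 0.18 on the log2 scale and B2_Mm1a fell to 1881 CPM under 4OHT, against 2289 CPM under DMSO. GSAT_MM, the major satellite of pericentric heterochromatin, had 55.2, 37.1, 50.04, 81.7 and 49.7 CPM under 4OHT, against 22.1, 18.97, 7.04, 61.2 and 9.17 CPM under DMSO. Its treatments overlapped through DMSO Dux-Het replicate 2, and the call (adjusted p = 0.0242 by edgeR) ended without either unlabelled library, 4OHT Dux-Het replicate 2, 4OHT Dux-KO replicate 1 or DMSO Dux-KO replicate 2, with adjusted p-values of 0.0528 to 0.0932. DESeq2 gave an adjusted p of 0.0566.

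**Figure D4:**
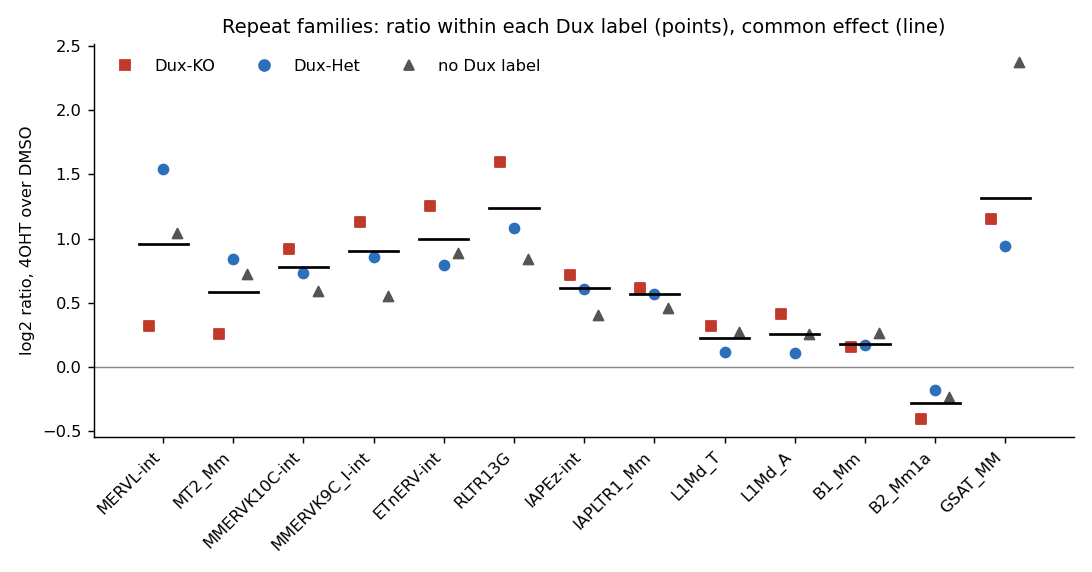
Log2 ratio of 4OHT over DMSO (vertical axis) for 13 repeat families (horizontal axis), with a square for Dux-KO, a circle for Dux-Het, a triangle for no Dux label and a line for the common effect. MMERVK10C-int, MMERVK9C_I-int, ETnERV-int and RLTR13G have their highest point in Dux-KO, and MERVL-int and MT2_Mm their lowest. The Dux-KO points include DMSO Dux-KO replicate 1, the library with the lowest repeat share.

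MERVL and the two-cell embryo genes are given per Dux label. MERVL-int had 332 and 327 CPM in Dux-KO under 4OHT, against 235 and 291 CPM in Dux-KO under DMSO. It had 1059 and 862 CPM in Dux-Het under 4OHT, against 312 and 346 CPM in Dux-Het under DMSO. In the pair with no Dux label it had 699 CPM under 4OHT and 339 CPM under DMSO. The 4OHT values in Dux-KO were thus within the range of the other DMSO libraries. The effect within Dux-KO was 0.32 (adjusted p = 0.217 by edgeR) and within Dux-Het 1.55 (adjusted p = 0.000328). The difference, -1.22 (SE 0.223), had an unadjusted p of 0.000183 and did not pass over all entries in edgeR, while DESeq2 (-1.26, adjusted p = 0.00936) and the edgeR fits with the replicate block (-1.21, adjusted p = 0.0101) or with no filter on low counts (-1.25, adjusted p = 0.000146) called it. MT2_Mm, the LTR that drives MERVL, had effects of 0.26 within Dux-KO and 0.84 within Dux-Het (unadjusted p of the difference 0.0174).

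Among 55 listed two-cell embryo genes 48 held enough counts to be tested, 42 rose in the common effect and Obox6 fell, at a median of 2.87. The filter could pass a gene on its level in 1 library, the size of the smallest group. Genes low under DMSO could thus enter through 4OHT libraries alone, which favours a rise in this count and median. In the 4 Dux-KO libraries 19 of the 48 genes had no count and 37 had at most 3 counts in all. Within Dux-Het 33 rose. Within Dux-KO 1 rose, a count that these low counts largely fix. Without the Dux-KO libraries 39 rose and without the Dux-Het libraries 25. Fitted with no Dux covariate 21 rose, and as the mean of the 3 within-label effects 17. That mean takes in Dux-KO effects that so few counts hardly estimate, so the 17 is not read as fewer genes responding. A filter of at least 1 CPM in at least 5 libraries left 9 of these genes, all of which rose. The 9 Zscan4 entries, a telomere-regulating zinc finger cluster, summed to 2 and 2 counts in Dux-KO under 4OHT and 0 and 0 counts in Dux-KO under DMSO. At most 2 counts per library lies under the limit of 3 counts that a count of 0 allows (0.0542 to 0.102 CPM in these 4 libraries), so no fold is given, and that limit covers counting error only. They summed to 129.9 and 119.4 CPM in Dux-Het under 4OHT and to 11.6 and 17.3 CPM in Dux-Het under DMSO. In the pair with no Dux label they reached 89.0 CPM under 4OHT and 14.2 CPM under DMSO. The mean within-label difference was 61.7 CPM. Its exact permutation p (0.0278 within Dux label, 0.0625 over the 5 same-numbered pairs) counts the Dux-KO libraries as higher under 4OHT on 2 counts each, under that limit, and is not read as a test of Dux-KO. In bulk RNA more cells in the two-cell-like state and more RNA per such cell cannot be told apart, and the same holds for every other marker list here. The members of the cluster are near-identical copies whose reads can be split between them, so single members are uncertain.

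Zscan4c had 21.6 and 20.4 CPM in Dux-Het under 4OHT, against 2.03 and 2.60 CPM in Dux-Het under DMSO. Tmem92, Gm5662 and the ubiquitin protease Usp17le had 1, 2 and 4 counts in the 4 Dux-KO libraries together and Dux-Het ratios of 2.86, 2.73 and 2.15. Zfp750, a zinc finger gene, was the 1 list member that rose within Dux-KO on its own. It had 21.2, 25.9, 23.9, 15.2 and 15.9 CPM under 4OHT, against 6.37, 6.19, 6.38, 4.49 and 5.13 CPM under DMSO, with no overlap and with ratios of 1.83 in Dux-KO, 1.75 in Dux-Het and 1.54 in the pair with no Dux label. Arg2, the mitochondrial arginase, had a Dux-KO ratio of 0.64 and Sp110 of 0.21, against Dux-Het ratios of 1.61 and 1.78. These 3 were the list members whose 4OHT libraries all lay above the DMSO libraries.

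Zscan4 promoters are shown because Dux activates this cluster and the levels above follow the Dux label. The motif TGATT, any base, then AATCA was in 0 of 25 two-cell genes with a RefSeq promoter (0.037% of 27025 genes). A looser form, TGATT, any 2 bases, then ATCA, chosen after the sequences were seen, was in 4 of the 25 (16%; Zscan4b, Zscan4c, Zscan4d and Zscan4f) and in 0.207% of 27025 genes. Both strands were read, and the capitals mark the match, which stands here as its reverse complement. The 150 bases before each RefSeq start are given 5′ to 3′ (GRCm38.p6, Zscan4c at chr7:11005595-11005744, plus strand, Zscan4d at chr7:11166149-11166298, minus strand, and Zscan4f at chr7:11397765-11397914, plus strand).
Zscan4c: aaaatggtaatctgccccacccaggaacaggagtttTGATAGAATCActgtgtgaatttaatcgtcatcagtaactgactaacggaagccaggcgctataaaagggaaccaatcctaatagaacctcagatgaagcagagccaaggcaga
Zscan4d: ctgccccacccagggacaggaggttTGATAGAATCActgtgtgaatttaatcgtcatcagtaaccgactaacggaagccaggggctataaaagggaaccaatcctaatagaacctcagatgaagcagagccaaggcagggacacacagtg
Zscan4f: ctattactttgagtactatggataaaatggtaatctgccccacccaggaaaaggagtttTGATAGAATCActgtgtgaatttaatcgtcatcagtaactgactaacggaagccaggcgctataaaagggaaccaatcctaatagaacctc

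Of 30 pluripotency genes 11 fell and 6 rose, with a median of -0.12, where 16.2% of all entries fell and 20.2% rose. Nanog, a core pluripotency factor, had 95.8, 101, 114, 109 and 158 CPM under 4OHT, against 150.4, 184, 183, 168 and 244 CPM under DMSO. The unlabelled library was the highest of each treatment, its 4OHT value exceeded the lowest DMSO value, and the common fall passed (log2 change -0.69 with SE 0.0776, edgeR adjusted p = 2.32e-05). Pou5f1, which encodes Oct4, averaged 273 ± 28.4 CPM under 4OHT and 399 ± 78.7 CPM under DMSO and fell, Sox2 did not pass (90.95 CPM under 4OHT and 99.5 CPM under DMSO), and neither did the naive factors Esrrb and Klf4. Fgf4, the growth factor ESCs make for themselves, fell 1.85-fold, Lin28a, which blocks let-7 processing, 1.82-fold, and Tcl1, a cofactor of Akt, 2.18-fold. Among the 6 that rose were Tbx3, Dppa2, Dppa4, Stat3 and Gdf3, by 0.26 to 0.62 on the log2 scale. This count of 6 became 3 without the unlabelled DMSO library or without 4OHT Dux-KO replicate 1, and 0 without the Dux-KO libraries.

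In the Nodal pathway the ligand rose and 1 of its inhibitors fell. Nodal, a TGF-beta family ligand, had 71.3, 65.1, 75.1, 71.1 and 69.1 CPM under 4OHT, against 21.9, 17.5, 21.1, 25.9 and 22.6 CPM under DMSO. The libraries did not overlap (3.23-fold higher, log2 change 1.69 with SE 0.0941, edgeR adjusted p = 5.61e-08). Lefty1 and Lefty2 encode secreted inhibitors of Nodal and are targets of its signal. Lefty1 averaged 104 ± 28.4 CPM under 4OHT and 104 ± 26.3 CPM under DMSO and did not pass, with a log2 fold change of 0.01 that turned negative with DESeq2's or the authors' scaling factors, and Lefty2 fell to 62.6 CPM under 4OHT, against 135 CPM under DMSO. The coreceptor Tdgf1 fell 1.505-fold and the receptor Acvr2b 1.98-fold (log2 change -0.99 with SE 0.103, edgeR adjusted p = 1.31e-05), while the signal transducer Smad2 rose 1.27-fold. Over the pathway 3 of 18 genes rose and 7 fell (median -0.17, and -0.11 without 4OHT Dux-Het replicate 1).

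Immediate early genes and targets of FGF-ERK signalling rose in 12 of 23 cases and fell in 2 (4 with the replicate block), where 20.2% of all entries rose and 16.2% fell. Their median was 0.33, and 0.58 without DMSO Dux-Het replicate 2. Fos, a subunit of AP-1, had 12.6, 11.7, 18.97, 16.2 and 7.54 CPM under 4OHT, against 1.96, 2.66, 3.32, 1.52 and 4.79 CPM under DMSO. The treatments did not overlap, although the 4OHT values were widely spread (log2 change 2.23 with SE 0.296, edgeR adjusted p = 8.97e-05). Egr1 had 72, 102, 73.96, 38.2 and 51.6 CPM under 4OHT, against 21.8, 20.7, 25.5, 15.9 and 25.6 CPM under DMSO (3.01-fold higher, with no overlap). Among targets of ERK, the transcription factor gene Etv4 rose 2.07-fold and the phosphatase gene Dusp4 1.88-fold. Ier3 and Spry1 fell. Myc (15.4 CPM under 4OHT and 18.9 CPM under DMSO) and Junb (11.4 CPM under 4OHT and 12.6 CPM under DMSO) did not pass, although Myc passed as lower with the replicate block (edgeR adjusted p = 0.0279).

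Lineage genes showed no common direction. The counts below stand against 20.2% of all entries that rose and 16.2% that fell. Of 20 primitive endoderm genes 7 rose and 0 fell (median 0.43; 1 fell without DMSO Dux-Het replicate 2), among them the receptor gene Pdgfra (4.26 CPM under 4OHT and 1.95 CPM under DMSO), the factor Gata6 (1.99 CPM under 4OHT and 0.927 CPM under DMSO) and Hnf4a (2.68-fold higher). Gata4, Sox17 and Foxa2 did not pass, although Gata4 passed as higher with the replicate block (edgeR adjusted p = 0.00311). The 20 genes summed to 981 to 1102 CPM under 4OHT and 819 to 1009 CPM under DMSO. Of 17 trophectoderm genes 7 fell and 2 rose (median -0.63, and -0.39 without DMSO Dux-Het replicate 1), 1 rose without 4OHT Dux-KO replicate 1, and their sum was 172 to 226 CPM under 4OHT and 169 to 338 CPM under DMSO. The keratin gene Krt8 averaged 20.7 CPM under 4OHT and 47.3 CPM under DMSO, Krt19 fell 3.09-fold, Tead4, a factor of the trophectoderm, fell 2.26-fold, and the defining factor Cdx2 was low and did not pass (0.201 CPM under 4OHT and 0.4199 CPM under DMSO). Of 13 mesoderm genes 4 rose and 4 fell, with sums of 35.4 to 41.3 CPM under 4OHT and 26.1 to 52.1 CPM under DMSO. T, which encodes Brachyury, had 0.916, 0.433, 0.547, 1.21 and 0.3803 CPM under 4OHT, against 7.79, 4.92, 6.88, 5.46 and 1.503 CPM under DMSO. The lowest DMSO value was in the unlabelled library, and the treatments did not overlap (log2 change -2.85 with SE 0.282, edgeR adjusted p = 8.38e-06). Mixl1, Evx1 and Fgf8 fell with it, while Wnt3, Wnt3a, Mesp2 and Kdr rose.

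Of 16 formative and primed epiblast genes 6 fell and 3 rose (median -0.43, and -0.27 without 4OHT Dux-Het replicate 2). Wnt8a, a Wnt ligand, had 8.03, 6.88, 7.57, 6.84 and 4.18 CPM under 4OHT, against 0.508, 0.348, 0.7301, 1.34 and 0.4404 CPM under DMSO. It rose 10.3-fold with no overlap. Of 14 neural genes 4 fell and 2 rose, where 16.2% of all entries fell and 20.2% rose. Their sum was 153 to 168 CPM under 4OHT and 223 to 265 CPM under DMSO. Neurod1, a neurogenic factor, averaged 14.4 ± 1.23 CPM under 4OHT and 2.04 ± 0.862 CPM under DMSO (7.01-fold higher), and Nes, the intermediate filament nestin, averaged 24.5 ± 7.08 CPM under 4OHT and 55.7 ± 21.4 CPM under DMSO (2.25-fold lower). When single libraries were left out, the median of the mesoderm list (0.09) lay between -0.07 (without DMSO Dux-Het replicate 2) and 0.38 (without DMSO Dux-KO replicate 1), and that of the neural list (0.08) between -0.34 and 0.05. Among fibroblast and feeder genes Thy1 alone fell in the common effect, while 5 fell without DMSO Dux-Het replicate 2, 3 without 4OHT Dux-Het replicate 2, 7 without all Dux-Het libraries, and 2 with the replicate block. Vim was the one that the block added (-0.45, edgeR adjusted p = 0.0690 without it and 0.0240 with it). The 10 genes summed to 975 to 1194 CPM under 4OHT and 980 to 1176 CPM under DMSO. The part of other cell types in any result was not tested.

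Other genes of the m6A system changed by less than 2-fold. Of 22 writer, reader and eraser genes 9 fell and 2 rose (median -0.22), and without the Dux-KO replicate 1 library under DMSO 14 fell and 0 rose. The 2 that rose were Wtap, a writer subunit, and Rbmx, a nuclear reader. None rose without DMSO Dux-Het replicate 1, 4OHT Dux-Het replicate 2 or either 4OHT Dux-KO library. The m6A-binding proteins of the IGF2BP family fell most, with Igf2bp3 at 62.6 ± 2.94 CPM under 4OHT and 109 ± 14.5 CPM under DMSO and Igf2bp2 1.92-fold lower. The demethylase gene Alkbh5 fell 1.49-fold. Of 25 genes of nuclear RNA export and decay 9 fell and 0 rose (median -0.23), while 13 fell and 2 rose with the replicate block. The export receptor gene Nxf1 fell 1.34-fold and its partner Nxt1 1.73-fold, and the exosome subunit Exosc3 1.72-fold. When any 1 DMSO Dux-Het or DMSO Dux-KO library was left out, 1 rose.

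Of 20 nuclear long noncoding RNAs tested 9 rose and 3 fell (median 0.29). With the replicate block 14 rose, without the Dux-KO libraries 3, and without single libraries 6 to 11. Neat1, the scaffold of paraspeckles, had 357, 330.3, 301, 407 and 220.3 CPM under 4OHT, against 116, 107, 104, 114 and 121 CPM under DMSO. The groups did not overlap (2.84-fold higher, adjusted p = 2.14e-06 by edgeR). Malat1, an abundant RNA of nuclear speckles, averaged 7473 ± 867 CPM under 4OHT and 4075 ± 381 CPM under DMSO, and Pvt1 rose 2.04-fold. Firre, an X-linked RNA that organises nuclear contacts, fell 1.86-fold. Rpph1 and Terc were the other two that fell, and 1 RNA of the list fell without DMSO Dux-Het replicate 1, DMSO Dux-KO replicate 1 or either 4OHT Dux-KO library.

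Serine and one-carbon genes fell within the amino acid list. Of 23 integrated stress response and amino acid genes 10 fell and 5 rose (median -0.40). Phgdh, the first enzyme of serine synthesis, averaged 34.1 ± 3.37 CPM under 4OHT and 107 ± 17.8 CPM under DMSO (3.15-fold lower), and Psat1, Psph, Shmt2 and Mthfd2 of the same routes fell with it, with log2 fold changes of -0.84 to -1.42. Atf4, the transcription factor of the response, did not pass (87.7 CPM under 4OHT and 78.3 CPM under DMSO). Its stress targets Ddit3, Chac1 and Ppp1r15a rose, as did Sesn2 and Atf3, 5 of 23 against 20.2% of all entries. Atf5, Trib3, Slc7a11, Slc3a2, Cebpb, Nupr1 and Pycr1 did not pass, and Asns, Slc7a5, Slc7a3, Vldlr and Aldh18a1 fell. With the replicate block 7 of the list rose and 11 fell. Without 4OHT Dux-KO replicate 1, 3 of the list rose.

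Of 27 imprinted genes 7 rose and 8 fell (median -0.04, and -0.14 to 0.07 when single libraries were left out). Beside this and the next counts, 20.2% of all entries rose and 16.2% fell. The noncoding RNAs Meg3, Rian and Mirg of 1 imprinted locus rose together (0.48, 0.51 and 0.73 on the log2 scale) while Dlk1 of that locus fell (-1.09). Of 20 germline and meiosis genes 7 rose and 0 fell (median 0.37), among them Taf7l (2.19 CPM under 4OHT and 0.864 CPM under DMSO), and 4 rose without DMSO Dux-KO replicate 1 or without either 4OHT Dux-KO library. With the replicate block, without DMSO Dux-Het replicate 2 or without 4OHT Dux-Het replicate 1, 1 of them fell. Of 23 interferon and RNA sensor genes 2 rose (Zbp1, a sensor of Z-form nucleic acid, and Ifit2) and 2 fell (Isg15 and Stat2), and with the replicate block 3 rose and 5 fell. The list's median was -0.02 (-0.15 to 0.17 when single libraries were left out), and 1 gene of the list rose without either unlabelled library, either 4OHT Dux-KO library, 4OHT Dux-Het replicate 1 or DMSO Dux-KO replicate 2. Of 14 mitochondrially encoded genes 4 rose and 0 fell, and with the replicate block 8 rose. Their median of 0.54 was 0.29 without DMSO Dux-KO replicate 1 and 0.81 without DMSO Dux-KO replicate 2. This count was 7 without DMSO Dux-KO replicate 2, and 2 without 4OHT Dux-Het replicate 1 or 4OHT Dux-KO replicate 2. The share of counts in all 37 mitochondrially encoded entries was 1.04 ± 0.223% under 4OHT and 0.794 ± 0.308% under DMSO (mean within-label difference 0.215 percentage points, exact permutation test, two-sided, p = 0.194). This share was higher under 4OHT in 5 of 5 same-numbered pairs (by 0.0462 to 0.470 points, exact permutation test of the signs, p = 0.0625, the smallest that 5 pairs allow). The difference was 0.0845 points without DMSO Dux-KO replicate 1, 0.120 without 4OHT Dux-KO replicate 2 and 0.346 without DMSO Dux-KO replicate 2.

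The largest rises outside the lists were in genes of low level under DMSO. Anxa8, a calcium-dependent membrane-binding annexin, had 28.1, 30.01, 27.7, 20.8 and 22.9 CPM under 4OHT, against 0.948, 1.598, 1.08, 0.783 and 1.58 CPM under DMSO. The lowest 4OHT value lay far above the highest DMSO value (log2 change 4.43 with SE 0.179, edgeR adjusted p = 4.24e-09). Col20a1, a collagen gene, had 36, 33.8, 36.4, 37.1 and 42.2 CPM under 4OHT, against 2.1, 1.58, 1.72, 2.14 and 2.64 CPM under DMSO (18.4-fold), and its ratios hardly differed by label (3.92 in Dux-KO, 3.94 in Dux-Het and 3.76 in the pair with no Dux label). Dnah3, an axonemal dynein heavy chain, had the largest log2 fold change among genes with a mean of at least 1 CPM and 1 direction under every label, 5.21 (SE 0.308), at 2.14 CPM under 4OHT and 0.0576 CPM under DMSO. Nfam1, an immune signalling receptor, Adcy10, the soluble adenylyl cyclase, and Ltb4r1, a leukotriene B4 receptor, rose by 3.98, 3.96 and 3.94 on the log2 scale. The noncoding gene Gm11290 followed the Dux label, with 0 and 0.217 CPM in Dux-KO under 4OHT and 4.36 and 2.26 CPM in Dux-Het under 4OHT. It had at most 0.138 CPM in any DMSO library. Of the falls, Dppa5b, a pseudogene, had the largest value by the same rule (-4.81), but its DMSO level was 11.4 and 0.277 CPM in Dux-Het, 10.2 CPM in the unlabelled library and 0.169 and 0.184 CPM in Dux-KO. Lipg, a lipase gene, fell 9.28-fold and Slfn9 8.04-fold.

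The 8-library set of Ythdc1 cKO cells with no Dux column, 4 under 4OHT and 4 under DMSO, shares no library with these 10. Both effects were therefore tested against each other in 1 fit with its own scaling over 18 libraries. Titles of the 8 libraries name 2 ESC lines, with 2 libraries of each line per treatment. The count columns name no line, so the fit has no line term and treats the 4 libraries of a treatment as replicates. The presence of Dux labels cannot be told apart from anything else that differed between the sets. Of 31020 entries the effect was higher in the Dux set for 258 (0.832%) and lower for 393 (1.27%). With the replicate block these counts were 835 and 1200. That block also pairs same-numbered columns of the 8-library set, where pairing was not checked. Leaving out 4OHT Dux-KO replicate 1 or 2 gave 149 or 131 higher, and leaving out DMSO or 4OHT Dux-Het replicate 2 gave 512 or 422. For the lower count, 4OHT Dux-Het replicate 2 left out gave 681, DMSO Dux-KO replicate 1 gave 213 and 4OHT Dux-KO replicate 2 gave 256. Across 18698 entries with a mean of at least 1 CPM the common effect and the 8-library effect had Pearson's r = 0.791 and Spearman's rho = 0.754, as a description across genes. In the 8-library set 6055 entries rose (19.5%) and 5034 fell (16.2%). Of entries that rose in the Dux set 63.8% also rose in the 8-library set, and of those that rose there 65.4% rose in the Dux set. For falls the shares were 66.2% and 63.0%.

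Of the 23 immediate early genes and FGF-ERK targets the effect was higher in the Dux set for Fosb, Fos and Egr1 and lower for 7, among them Fosl1 (-1.18) and Dusp4 (-0.73), with a median difference of -0.36. Fosb averaged 12.6 CPM under 4OHT and 1.004 CPM under DMSO in the Dux set, and 65.9 CPM under 4OHT and 152 CPM under DMSO in the 8-library set (difference 4.72, SE 0.5001, adjusted p = 3.26e-05 by edgeR). Fos averaged 13.1 CPM under 4OHT and 2.84 CPM under DMSO in the Dux set, and 28.7 CPM under 4OHT and 78.7 CPM under DMSO in the 8-library set (difference 3.65, SE 0.352, adjusted p = 1.74e-05 by edgeR). Both thus rose in the Dux set and fell in the 8-library set, whose DMSO level was far higher. Egr1 differed by 1.80, its change in the 8-library set not passing. Lefty1 averaged 101 CPM under 4OHT and 103 CPM under DMSO in the Dux set, and 21.3 CPM under 4OHT and 90.01 CPM under DMSO in the 8-library set (difference 2.06, SE 0.248, adjusted p = 0.000181 by edgeR), and Lefty2 differed by 1.43. Nodal rose and Nanog fell in both sets, Nodal by more in the Dux set (difference 0.85) and Nanog by less (0.74). Cdkn1a rose more in the Dux set (0.57) and Ldha fell more (-0.60). Vim, which encodes vimentin, averaged 52.3 CPM under 4OHT and 71.5 CPM under DMSO in the Dux set, and 112 CPM under 4OHT and 61.9 CPM under DMSO in the 8-library set (difference -1.33, SE 0.248, adjusted p = 0.00669 by edgeR), and Krt8 differed by -1.18.

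Of 1051 repeat families the effect was higher in the Dux set for 1 (0.0951%) and lower for 6 (0.571%). GSAT_MM averaged 53.6 CPM under 4OHT and 23.6 CPM under DMSO in the Dux set, and 132 CPM under 4OHT and 11.9 CPM under DMSO in the 8-library set (difference -2.18, SE 0.515, adjusted p = 0.0265 by edgeR). MT2_Mm averaged 218 CPM under 4OHT and 143 CPM under DMSO in the Dux set, and 555 CPM under 4OHT and 204 CPM under DMSO in the 8-library set (difference -0.89, SE 0.167, adjusted p = 0.00716 by edgeR). MMERVK10C-int rose less in the Dux set (-0.42). The difference for MERVL-int did not pass (-0.71, adjusted p = 0.133 by edgeR). The Dux set effects of MT2_Mm and MERVL-int include the Dux-KO libraries. Zscan4c rose by 3.02 in the Dux set and 2.88 in the 8-library set on the log2 scale, and that difference did not pass either (adjusted p = 0.915 by edgeR). Its Dux set value rests on the Dux-Het and unlabelled libraries, since the 9 Zscan4 entries held at most 2 counts in any Dux-KO library. The rise in the Dux set did not pass with no Dux covariate (3.03, adjusted p = 0.0720 by edgeR). The mean of the 3 within-label effects (1.99, SE 2810) cannot test this rise, since it takes in a Dux-KO effect that rests on almost no counts. Pramel7, a member of the Prame family, was detected in all Dux set libraries (1.77, 1.28, 1.92, 0.906 and 2.86 CPM under 4OHT and 2.81, 1.99, 2.33, 1.13 and 2.69 CPM under DMSO). In the 8-library set it averaged 0.167 CPM under 4OHT and had 0 counts in all 4 DMSO libraries, so its fitted difference depends on the prior count.

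**Figure D5:**
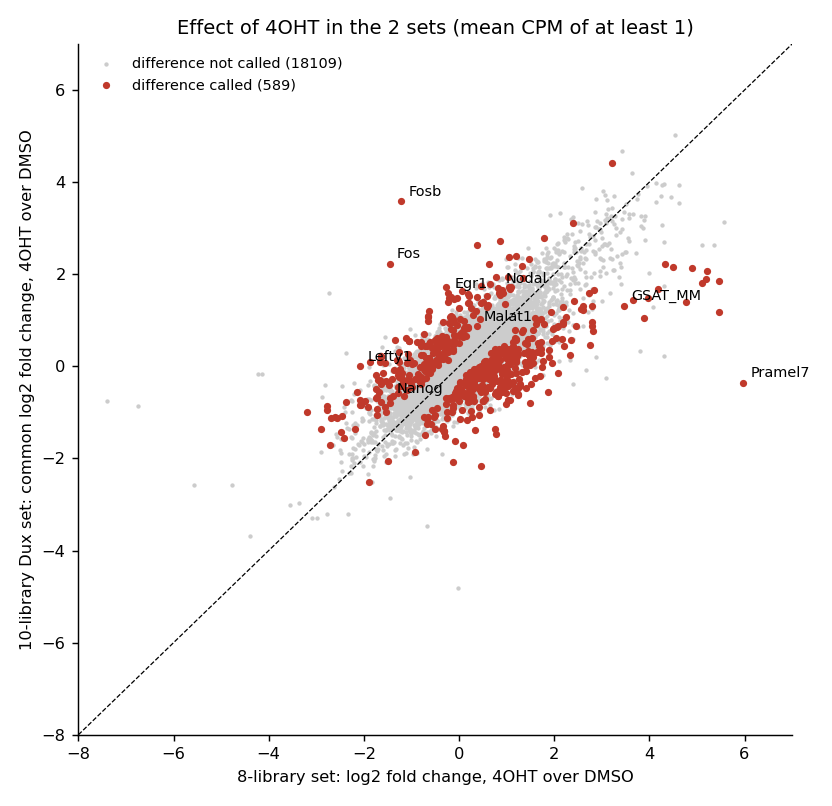
Common log2 fold change in the 10 libraries of the Dux set (vertical axis) against the log2 fold change in the 8-library set (horizontal axis), 1 point per entry with a mean of at least 1 CPM, with red points where the difference passed (589 of 18698). Fosb, Fos, Egr1 and Lefty1 lie above the diagonal, and Pramel7 and GSAT_MM below it.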

How the data were processed

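Ribosomal RNA was removed from total RNA of the ESCs with RNase H, and the libraries were read from both ends, per the labels' protocols. STAR 2.7, RSEM, Bowtie2, bcl2fastq and mm10 as the build are named in the submitters' processing notes, with no role or order, and neither the counting tool nor the use of strand or of reads with several positions is recorded there. Antisense and near-identical entries can therefore share reads. The authors deposited whole-number counts for 44749 entries (43672 genes matched by symbol to GENCODE vM21 and 1077 repeat families). The normalized signal values deposited by the authors equal those counts divided by 1 factor per library, to within 5.44e-15 over 34971 complete lines. That table breaks off within a line and was used for an alternative scaling alone. Gene positions come from the GENCODE vM21 annotation of GRCm38 (mm10) and promoters from RefSeq for GRCm38.p6.

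The 10 libraries were fitted in edgeR 4.0.16 under R 4.3.3 with filterByExpr by group, TMM scaling, the Dux label as an additive covariate and 1 treatment term (6 residual degrees of freedom), with the quasi-likelihood test and Benjamini-Hochberg adjustment at 0.05 over 29322 entries. Within-label effects and their difference came from 6 group means (4 residual degrees of freedom), and the comparison with the 8-library set from 1 fit over 18 libraries (12). Within-label ratios used a pseudocount of 0.5 CPM. Single values were tested by permutation within Dux label over all 72 assignments and, as an alternative, by sign flips over the 5 same-numbered pairs. The fits were also run on simulated counts with known changes. These counts had the same dispersion for every entry and, beside the known changes, no differences between labels or pairs. They therefore do not measure error rates in these data. DESeq2 1.42.0 and limma 3.58.1 served as alternatives, beside other scalings, filters, covariates and left-out libraries. The limma-trend fit, the sign flips, the fits without all Dux-KO or all Dux-Het libraries and the list counts without DMSO Dux-KO replicate 1 were chosen after seeing the data. Total counts were 31.64 to 54.14 M per library. Replicates differed beyond counting error (chi-square per degree of freedom 18.99 to 99.07), so depth alone does not set the precision.

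Replicate numbers in the titles were taken as possible pairs of the Dux-KO and Dux-Het libraries. Over 8066 well expressed entries, deviations of same-numbered libraries from their group means had a correlation of 0.576 in Dux-Het and 0.256 in Dux-KO. With 2 libraries in a group both pairs of a label share 1 such value, which can be positive without pairing. Pairing is therefore not established, and the labels do not say what a number marks. Blocked values stand beside the results whose call they change or whose count they move by over 1.5 times.

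The 10 libraries and the 26 gene lists were chosen with earlier results of these data known, so the lists are no independent support. Genes were named by rule: Ythdc1, Mettl3 and Duxf3, the entries with the largest changes (10 genes and 5 repeat families in each direction, at a mean of at least 1 CPM and with 1 sign in all 3 within-label ratios), up to 4 members of each list by smallest adjusted p with up to 4 more that differ between Dux-KO and Dux-Het, and the 5 largest differences in each direction between labels and between sets. Further list members were named with their values known. A few list members are not reported here.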

Additional observations from a re-analysis of the deposited data

Results flagged for a closer look

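Each treatment has 5 libraries, and in 23 of 288 sets of 5 values examined 1 library stood apart from the other 4, where chance gives about 1 in 20. Under 4OHT the library with no Dux label was the high one for Scd2 (80.08 CPM), Ndufa4l2 (1.476 CPM) and Nanog (158 CPM), and it also stood apart for Dusp4 (44.74 CPM) and Asns (149 CPM). The second Dux-Het library under 4OHT stood apart for Adcy10 (10.47 CPM), Nav3 (12.09 CPM), Hnf4a (3.951 CPM), Vim (87.02 CPM), Col3a1 (2.564 CPM), Exosc2 (46.03 CPM), Zbp1 (2.101 CPM), Phlda2 (3.257 CPM) and Peg10 (695.1 CPM). Under DMSO the unlabelled library stood apart for Duxf3 (0.3368 CPM), Fosb (2.306 CPM), Tcl1 (38.47 CPM), Tdgf1 (595.6 CPM) and Hormad1 (4.741 CPM), and the second Dux-Het library for Gm9239 (0.5299 CPM), GSAT_MM (61.22 CPM), Pax6 (12.19 CPM) and Thy1 (2.304 CPM).

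For 29 named entries the log2 effect in the Dux set differed from that in the 8-library set by edgeR's test of the difference itself at an adjusted p under 0.05. Of these, 10 were named by this same difference, so their call was fixed by the rule and the count is a description. Over all 31020 entries the effect was higher for 0.832% and lower for 1.27%. It was higher in the Dux set for Fosb (4.717), Fos (3.645), Gm26783 (2.224), Gstm3 (2.17), Lefty1 (2.06), Egr1 (1.8), Anxa8 (1.174), Nodal (0.8462), Nanog (0.7361), Cdkn1a (0.5698), Acvr2b (0.5147) and Malat1 (0.4718). It was lower for Pramel7 (-6.352), Gm11168 (-4.313), Gm10717 (-3.634), Nav3 (-3.353), Gm21738 (-3.323), GSAT_MM (-2.177), Krt19 (-1.565), Nes (-1.357), Vim (-1.333), Gata2 (-1.244), Krt8 (-1.182), Fosl1 (-1.18), Dusp4 (-0.7301), Ehmt2 (-0.6139), Ldha (-0.5955), B2_Mm1a (-0.4818) and MMERVK10C-int (-0.4151). The calls of Gm26783 (adjusted p = 0.0675 to 0.0759 by edgeR) and Gstm3 (0.0533 to 0.0710) ended without either unlabelled library, 4OHT Dux-Het replicate 1, DMSO Dux-KO replicate 1 or either 4OHT Dux-KO library, and that of Gm26783 also without DMSO Dux-KO replicate 2. The call of Nav3 (adjusted p = 0.0520 to 0.0770 by edgeR) ended without DMSO Dux-Het replicate 2 or any 1 of the 4 Dux-KO libraries. Single libraries were left out for 10 of these differences, Gm11168, Gm10717, Gm21738, Pramel7, Fosb, Fos and Lefty1 being the others, which kept their call. The value for Pramel7 depends on the prior count, since the 4 DMSO libraries of the 8-library set hold none.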

How the results depend on the processing

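Of 141 named entries 114 kept their direction and their side of the threshold in every alternative run that tested them. Some were not tested under the filter of at least 1 CPM in at least 5 libraries. Most were named for a small adjusted p or a large change in these data, which favours this count. Without the Dux-KO libraries 2261 entries rose and 2361 fell, and 147 repeat families rose. Without the Dux-Het libraries 419 families rose, and with the mean of the 3 within-label effects 425. Between Dux-KO and Dux-Het the effect was higher for 7 entries and lower for 21 with no filter on low counts, and lower for 2 with DESeq2. The effect was higher in the Dux set than in the 8-library set for 840 entries with no filter, 405 with at least 1 CPM in at least 5 libraries and 642 with DESeq2, and lower for 849 with no filter and 819 with DESeq2. Without the unlabelled pair the repeat share differed by 5.297 points and summed Zscan4 by 55.13 CPM, the first at an exact permutation p of 0.0556, the smallest that design allows. Single libraries left out gave 0 to 1 entries higher between the labels, 131 to 512 higher and 213 to 681 lower between the sets, 4.367 to 5.83 points for repeats and 55.13 to 63.45 CPM for Zscan4. The Lefty1 change (0.0087) was -0.01618 with DESeq2 size factors, -0.02087 with the authors' factors, -0.01595 with DESeq2, -0.001458 with no Dux covariate, -0.04028 without the unlabelled pair and -0.2233 without the Dux-KO libraries, and -0.1015 to 0.1832 without single libraries. The cause of these moves was not tested, beyond the fewer libraries or other entries tested.

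With the replicate block, which pairs same-numbered libraries, 6940 entries rose and 5714 fell, 2 entries were higher and 3 lower in Dux-KO than in Dux-Het, 835 were higher and 1200 lower in the Dux set, and Lefty1 changed by -0.006011. As pairs, the repeat share (5.098 points) and summed Zscan4 (61.7 CPM) had an exact permutation p of 0.0625. Utf1, Gm11168 and Nav3 gained a call, and so did further list members. Among these were 6 genes of nuclear RNA export and decay, 6 retroelement families, 5 immediate early genes and FGF-ERK targets, and 5 nuclear long noncoding RNAs. The block removed no call of a list member.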
